A study of Homo sapiens with 12 samples.

Results

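Transcripts of 10 genes of the Hippo pathway and its YAP/TAZ output were followed in H1299 cells depleted of GAS41. They were the rows of the deposited count table annotated CTGF, CYR61, AMOTL1, AMOTL2, PTPN14, NT5E, LATS2, AJUBA, TEAD1 and YAP1, which are 10 of the 13853 genes listed there. All 10 passed the filter on low counts. After knockdown 4 of them rose (LATS2, NT5E, PTPN14 and CYR61), 4 fell (AMOTL1, CTGF, TEAD1 and AJUBA) and 2 (AMOTL2 and YAP1) did not pass the test. In this fit to the counts the 2 secreted targets most often used to read YAP activity, CTGF and CYR61, went opposite ways. The authors' deposited table gives both a negative change, that of CYR61 not called.

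H1299 is a human non-small cell lung cancer line. The control group, shNT, carried a control vector (3 libraries), and the knockdown group, shGAS41, carried a short hairpin against GAS41, the protein encoded by YEATS4 (3 libraries). GAS41 reads acetylated histone H3 and is a subunit of complexes that place H2A.Z in chromatin. Cells of the series were infected with virus and kept under drug selection before use, so each culture was a selected pool, and both groups shared this handling. The sources used here do not give the hairpin sequence or the number of hairpins. They also leave unsaid whether replicate libraries were grown as separate cultures, so the spread behind each p-value is that of these libraries and may be technical. The 6 chromatin immunoprecipitation samples were not analysed here.

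The Hippo pathway is a kinase cascade that restrains growth. MST kinases with the scaffold SAV1 activate the LATS kinases and their MOB1 cofactors, and LATS phosphorylates the coactivators YAP and TAZ, which are then held in the cytoplasm and degraded. Unphosphorylated YAP and TAZ enter the nucleus, bind TEAD transcription factors and switch on genes such as CTGF, CYR61 and ANKRD1. Several targets, among them LATS2, AMOTL2 and PTPN14, encode restraints on YAP, which closes a negative feedback loop. Much of the control acts on the YAP and TAZ proteins, which RNA counts do not measure.

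The libraries held 58629147 to 72747010 counts over the listed genes. YEATS4 stood at 44.1, 47.1 and 47.6 CPM (a gene's reads scaled to its library's total, with TMM factors) in the shNT libraries and 1.66, 1.77 and 2.01 CPM in the shGAS41 libraries, so the labels matched the targeted gene in all 6. The libraries numbered 1 in both groups deviated from their group means in a like way (r = 0.45 across genes), and the calls of the 10 genes were the same without them. Of the marker genes for lung epithelium and carcinoma 3 of 9 could be read, KRT7, KRT8 and KRT18, with a summed level of 857 to 877 CPM in control and 601 to 618 CPM in knockdown libraries. KRT8 (log2 fold change −0.67) and KRT18 (−0.44) make up nearly all of that sum and fell, while KRT7 rose from a mean of 1.20 to 4.42 CPM (1.90, adjusted p = 0.000293). The authors' deposited table gives opposite signs for KRT8 (0.46) and KRT18 (0.15), neither called there, and the same sign for KRT7 (1.84). The mesenchymal markers VIM, CDH2, FN1 and COL1A1 (4 of 11) summed to 2675 to 2776 CPM in control and 3191 to 3203 CPM in knockdown libraries. VIM (log2 fold change 0.22) makes up nearly all of that sum, with means of 2641 CPM in control and 3065.5 CPM in knockdown libraries. The other markers of both lists, among them CDH1, EPCAM and NKX2-1, and the leukocyte and endothelial lists were not analysed here. The part of these shifts in the results below was not tested, and in bulk RNA fewer cells of a kind and less RNA per cell cannot be told apart.

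Changes were widespread across the table, and the counts of the 10 genes and of the lists below have to be read against that. In the quasi-likelihood test of edgeR, adjusted by Benjamini-Hochberg over 13846 tested genes, 68.1% of all genes were called at an adjusted p under 0.05, 33.6% as higher and 34.5% as lower. The 8 of 10 called here are therefore near the background. In 8 of the 10 the 3 knockdown values lay wholly on one side of the 3 control values, against 72.3% of all genes. The median absolute log2 fold change of the 10 was 0.50, and that of all tested genes was 0.35. The 10 were chosen with earlier results of these data known, so no conclusion is drawn from this difference.

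**Figure D1:**
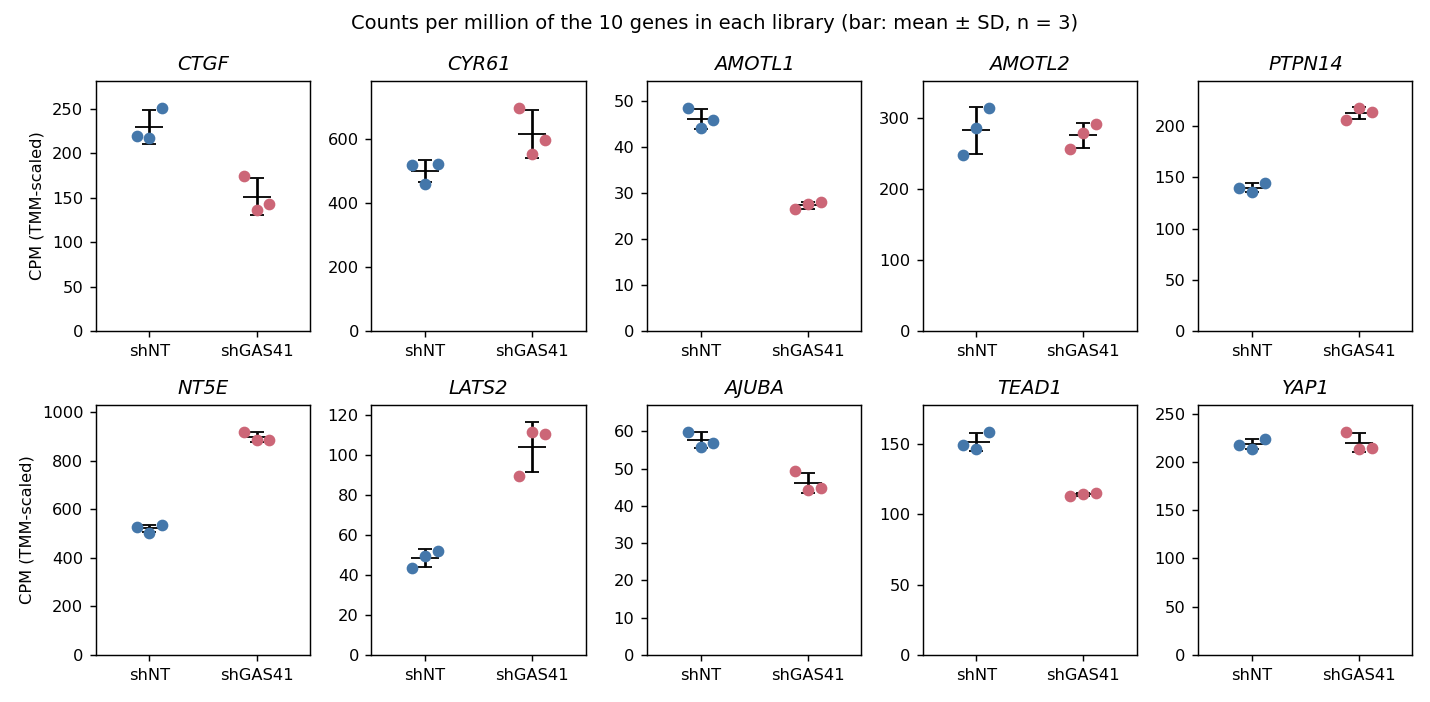
Level of each of the 10 genes in TMM-scaled CPM (vertical axes, starting at 0 and differing between panels) in the 3 shNT and 3 shGAS41 libraries (points), with the mean ± SD of each group. The groups overlap for AMOTL2 and YAP1 and are apart for the other 8 genes.

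CTGF (ENSG00000118523; CCN2 in current naming) encodes a secreted matrix-associated protein of the CCN family and is a standard readout of YAP/TAZ and TEAD. Its level was 219, 217 and 251 CPM in control and 175, 137 and 143 CPM in knockdown libraries. Every knockdown value lay below every control value, and shGAS41 library 1 lay nearest to the controls. Fitted over all libraries CTGF fell to 0.660 of its control level (log2 fold change −0.60 ± 0.09, SE, n = 3 per group; adjusted p = 0.000374). Without shGAS41 library 1 the log2 fold change was −0.71.

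CYR61 (ENSG00000142871; CCN1 in current naming) encodes the paralogous secreted protein, likewise a direct target of YAP and TEAD. It stood at 519, 461 and 522 CPM in control and 698, 553 and 599 CPM in knockdown libraries. The knockdown values were all higher, but the gap between the highest control and the lowest knockdown value was narrow. CYR61 rose 1.23-fold (log2 fold change 0.30 ± 0.08, SE; adjusted p = 0.00992), and its 95% confidence interval ran from 0.11 to 0.49. The size of this change exceeded that of 44.7% of all tested genes. NOV, the only other CCN gene that could be read of 4, rose from 0.789, 0.355 and 0.371 CPM to 2.12, 1.38 and 1.89 CPM (log2 fold change 1.79 ± 0.31, SE; adjusted p = 0.000448), a low level in both groups.

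The ratio of CTGF to CYR61 counts within a library does not depend on how libraries are scaled to each other. Its log2 value was −1.24, −1.08 and −1.06 in control and −2.00, −2.02 and −2.07 in knockdown libraries. The ratio was thus lower in every knockdown library, by 0.90 on the log2 scale, which is 1.87-fold. With 3 libraries against 3 the exact two-sided permutation test cannot go below p = 0.1, the value it gave (0.114 after adjustment over 8 ratios).

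The stretch before the CTGF start is shown because it is a well-studied TEAD-bound promoter, and the others because they hold the same letters in front of genes that fell, rose or were not called. TEAD proteins bind a short element whose core reads GGAATG on one strand and CATTCC on the other. The sequences come from RefSeq promoter windows (build GRCh38.p14), are written 5′ to 3′ on the gene's strand, and have each core match on either strand in capitals. CTGF is chr6:131951373-131951622 (minus strand), PTPN14 chr1:214551757-214551842 (minus), AMOTL2 chr3:134374471-134374556 (minus, the second of 2 listed starts), AJUBA chr14:22976856-22976941 (minus, the second of 2 listed starts), YAP1 chr11:102110245-102110330 (plus) and ANKRD1 chr10:90921170-90921337 (minus).
CTGF: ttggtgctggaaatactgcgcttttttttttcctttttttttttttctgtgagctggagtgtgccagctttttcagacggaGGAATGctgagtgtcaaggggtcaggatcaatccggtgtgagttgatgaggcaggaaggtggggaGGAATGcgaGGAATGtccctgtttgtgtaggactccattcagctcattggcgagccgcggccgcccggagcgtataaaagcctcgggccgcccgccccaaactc
PTPN14: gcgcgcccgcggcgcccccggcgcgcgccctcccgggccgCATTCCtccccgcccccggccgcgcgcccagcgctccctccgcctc
AMOTL2: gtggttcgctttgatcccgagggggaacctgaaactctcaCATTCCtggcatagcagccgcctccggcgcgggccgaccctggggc
AJUBA: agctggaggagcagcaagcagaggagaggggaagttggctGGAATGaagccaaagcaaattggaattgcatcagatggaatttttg
YAP1: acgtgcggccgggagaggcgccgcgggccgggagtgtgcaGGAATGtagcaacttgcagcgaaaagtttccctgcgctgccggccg
ANKRD1: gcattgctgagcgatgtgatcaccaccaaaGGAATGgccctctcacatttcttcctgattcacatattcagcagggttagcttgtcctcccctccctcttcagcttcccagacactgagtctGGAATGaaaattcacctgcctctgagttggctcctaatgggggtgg

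CTGF has 3 core matches in the 250 bases before its start, beginning 169, 104 and 95 bases upstream. PTPN14 has 1 match (200 bases upstream), AMOTL2 1 (69), AJUBA 1 (59) and YAP1 1 (162). Promoter windows were found for 8 of the 10 genes, with CYR61 and TEAD1 unmatched, and 5 of the 8 held the core before a listed start. Counted by start, as the background is, 5 of 10 starts held it. LATS2 held 1 match just after its start, and AMOTL1 and NT5E held none in the window. Over 35116 promoter windows of the same length 11.9% held the core at least once and 0.0826% at least 3 times. The AP-1 motif TGANTCA, searched on both strands, was in none of the 8 genes' windows before the start and in 6.57% of all windows. Of these 5 genes 2 fell (CTGF and AJUBA), 1 rose (PTPN14) and 2 were not called (AMOTL2 and YAP1). ANKRD1, which is not among the 10 and fell, has 2 core matches, 220 and 128 bases upstream, and an AP-1 match beginning 195 bases upstream. A match is a description of the letters and not a measured binding site.

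NT5E (ENSG00000135318) is a YAP/TAZ target that encodes the surface enzyme CD73, which turns AMP into adenosine outside the cell. Its level was 526, 504 and 535 CPM in control and 921, 885 and 886 CPM in knockdown libraries. The groups were far apart compared with their spread. NT5E rose 1.72-fold (log2 fold change 0.78 ± 0.04, SE; adjusted p = 1.27e-07). Its log2 count ratio to CTGF went from a mean of 1.19 ± 0.09 to 2.58 ± 0.16 (SD, n = 3, exact permutation p = 0.1, 0.114 after adjustment). This shift of 1.39, or 2.62-fold, was the largest of the 8 ratios compared. It restates the rise of NT5E and the fall of CTGF, so its rank follows from the choice of this pair.

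Of the other genes of extracellular adenosine handling 7 of 13 could be tested. Of these 2 rose, 2 fell and 3 were not called (33.6% of all tested genes rose and 34.5% fell). The median log2 fold change was −0.023 (−0.0051 over all genes). ADA, which deaminates adenosine, rose by 0.93, and ADK, which phosphorylates it inside the cell, rose by 0.28. The adenosine transporter gene SLC29A1 fell by 0.60, from 188 to 124 mean CPM. ENTPD1, which encodes the ectonucleotidase CD39 upstream of CD73, fell by 0.22 (adjusted p = 0.0207). The ENTPD1 call was lost without shNT library 1 (adjusted p = 0.0795) or 3 (0.0533), without shGAS41 library 2 (0.0867) or 3 (0.0665), and with upper-quartile scaling (0.0678).

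LATS2 (ENSG00000150457) encodes a kinase that phosphorylates YAP and TAZ and is itself induced by them. It had 43.4, 49.4 and 52.1 CPM in control and 89.3, 112 and 111 CPM in knockdown libraries. No knockdown value came near the controls, and shGAS41 library 1 was the lowest of its group. LATS2 rose 2.15-fold (log2 fold change 1.10 ± 0.10, SE; adjusted p = 5.19e-06), the largest change among the 10 genes, and its size exceeded that of 92.3% of all tested genes. LATS1, the sister kinase, rose by less, from 95.2 to 131 mean CPM (log2 fold change 0.47 ± 0.05, SE). The log2 ratio of LATS2 to LATS1 counts went from −0.98 ± 0.14 to −0.35 ± 0.23 (SD), with no overlap between the groups.

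The rest of the upstream kinase module moved in both directions. Of the other 23 core kinase and scaffold genes, all tested, 9 rose, 6 fell and 8 were not called, with a median of 0.060. The shares over all tested genes were 33.6% higher and 34.5% lower. The largest rises were those of MINK1 (log2 fold change 1.50 ± 0.04, SE) and TNIK (1.10 ± 0.06), MAP4K-family kinases that can act on LATS alongside MST. MINK1 went from 85.7 to 242 mean CPM. TAOK2, an activator of MST kinases, rose by 0.39, while its relative TAOK3 fell by 0.33. NF2, which encodes the membrane scaffold Merlin that brings LATS to the cell cortex, fell from 78.4 to 41.2 mean CPM (log2 fold change −0.93 ± 0.06, SE; adjusted p = 4.11e-07). RASSF1, whose product binds MST kinases, fell by 0.81.

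AMOTL1 (ENSG00000166025) belongs to the angiomotin family, junction and actin-associated proteins that bind YAP and keep it out of the nucleus. Its values were 48.6, 44.2 and 45.9 CPM in control and 26.5, 27.6 and 28.0 CPM in knockdown libraries. The knockdown values sat close together, well under the controls. AMOTL1 fell to 0.591 of its control level (log2 fold change −0.76 ± 0.06, SE; adjusted p = 1.38e-06), the largest fall among the 10.

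AMOTL2 (ENSG00000114019), a second angiomotin and a YAP target, behaved differently. Its values of 248, 286 and 315 CPM in control and 257, 279 and 292 CPM in knockdown libraries overlapped. The log2 fold change was −0.036 with a 95% confidence interval of −0.22 to 0.15 (adjusted p = 0.711). This does not show that the gene was unaffected, and the interval reflects the spread of these libraries alone. AMOT, the founding member of the family, rose from 13.1 to 17.9 mean CPM (log2 fold change 0.45, adjusted p = 0.00177), although it fell outside the naming rule and was chosen for completing the family. The log2 ratio of AMOTL1 to AMOTL2 counts went from −2.61 ± 0.22 to −3.33 ± 0.05 (SD), a 1.65-fold shift seen in every library (exact permutation p = 0.1, 0.114 after adjustment).

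PTPN14 (ENSG00000152104) encodes a tyrosine phosphatase that binds YAP and restrains it, and is a YAP target as well. It stood at 139, 136 and 144 CPM in control and 206, 218 and 214 CPM in knockdown libraries. Spread within each group was small beside the distance between them. PTPN14 rose 1.52-fold (log2 fold change 0.60 ± 0.04, SE; adjusted p = 1.08e-06). Among the other 14 genes whose products bind or retain YAP, 13 were tested, of which 9 rose, 1 fell and 3 were not called. Their median was 0.31. Over all tested genes 33.6% rose and 34.5% fell. CTNNA1, which encodes alpha-catenin, rose by 0.37, and BTRC, the ubiquitin ligase subunit that recognises phosphorylated YAP, rose by 0.59. CSNK1E, a kinase that primes that recognition, rose by 0.36, and the 14-3-3 gene YWHAB was the 1 that fell, by 0.38.

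**Figure D2:**
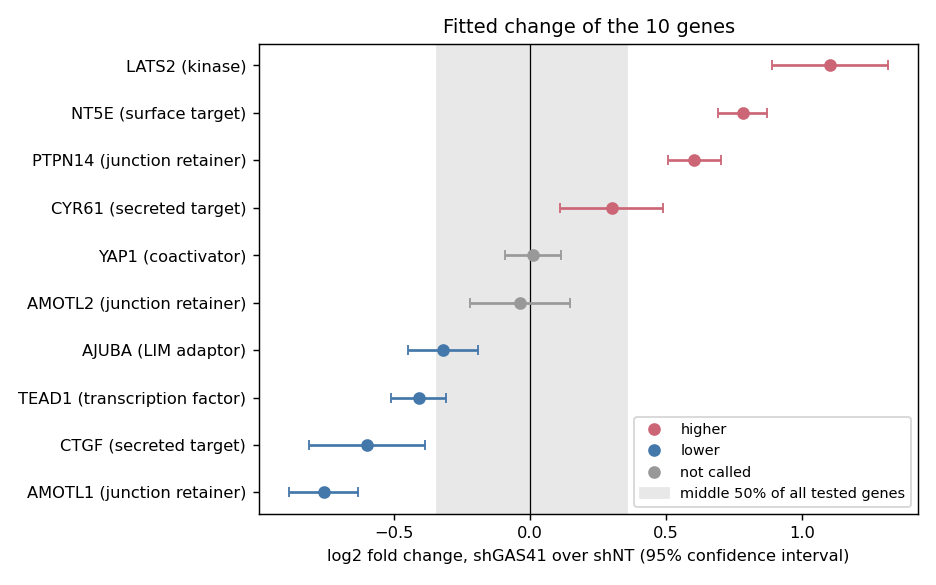
Log2 fold change of shGAS41 over shNT for the 10 genes (points, horizontal axis) with 95% confidence intervals, ordered by value and coloured by call, with the middle 50% of all tested genes shaded. LATS2, at 1.10, and AMOTL1, at −0.76, mark the ends, and the intervals of AMOTL2 and YAP1 include 0.

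AJUBA (ENSG00000129474) encodes a LIM-domain adaptor that binds LATS kinases at junctions and limits their action on YAP. It had 60.0, 55.9 and 56.9 CPM in control and 49.3, 44.4 and 44.8 CPM in knockdown libraries. All knockdown values were lower, by a modest margin. AJUBA fell to 0.801 of its control level (log2 fold change −0.32 ± 0.06, SE; adjusted p = 0.000643).

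Of 5 other Ajuba and zyxin family genes 3 fell (34.5% of all tested genes did), 1 rose and 1 was not called, and the call of LIMD1, among the 3, did not hold in every setting. WTIP fell from 33.6 to 17.8 mean CPM (log2 fold change −0.92 ± 0.07, SE) and TRIP6, which binds LATS, fell from 74.5 to 39.7 mean CPM (−0.91 ± 0.05). LIMD1 fell by 0.18 (adjusted p = 0.0180), a call lost without shNT library 2 (adjusted p = 0.0653) or 3 (0.0625), without shGAS41 library 3 (0.0737) and with upper-quartile scaling (0.0671). LPP, a zyxin relative found in focal adhesions, rose by 0.53. ZYX, with a log2 fold change of −0.18, missed the threshold (adjusted p = 0.0644). It passed under 5 alternatives: DESeq2 (adjusted p = 0.0459), library size alone (0.0327), the replicate block (0.000400), the fit without shGAS41 library 3 (0.0318) and the fit without library 1 of both groups (0.00909). The ratio of AJUBA to LIMD1 counts overlapped between the groups (difference −0.14 on the log2 scale; exact permutation p = 0.3 before and after adjustment).

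TEAD1 (ENSG00000187079) encodes a DNA-binding partner of YAP and TAZ. Its values were 149, 146 and 159 CPM in control and 113, 114 and 115 CPM in knockdown libraries. The 3 knockdown libraries were nearly equal, and all were lower than the controls. TEAD1 fell to 0.753 of its control level (log2 fold change −0.41 ± 0.05, SE; adjusted p = 2.13e-05).

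TEAD4 fell by more, from 115 to 72.6 mean CPM (log2 fold change −0.67 ± 0.05, SE; adjusted p = 1.48e-06). The ratio of TEAD1 to TEAD4 counts was accordingly higher in every knockdown library, by 0.26 on the log2 scale (exact permutation p = 0.1, 0.114 after adjustment). TEAD3 had a log2 fold change of −0.27 (adjusted p = 0.0410) with overlapping groups. Its call was lost with upper-quartile scaling (adjusted p = 0.0945), without shNT library 1 (0.147) or 2 (0.0840), and without shGAS41 library 2 (0.170) or 3 (0.0834). TEAD2 had a log2 fold change of −0.078 and was not called (adjusted p = 0.441).

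YAP1 (ENSG00000137693), which encodes YAP, had 218, 213 and 224 CPM in control and 231, 213 and 215 CPM in knockdown libraries. The groups overlapped, with shGAS41 library 1 the highest of the 6. The log2 fold change was 0.011 with a 95% confidence interval of −0.093 to 0.11 (adjusted p = 0.852), so a change of the size seen for TEAD1 lies outside the interval. WWTR1, which encodes the paralogue TAZ, rose from 172, 150 and 155 CPM to 275, 255 and 249 CPM (log2 fold change 0.71 ± 0.06, SE; adjusted p = 2.99e-06). The log2 ratio of YAP1 to WWTR1 counts went from 0.46 ± 0.10 to −0.24 ± 0.02 (SD), a 1.63-fold shift with no overlap between the groups.

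Among the other TEAD partners, VGLL3 had a log2 fold change of −0.52 (adjusted p = 0.0165) with overlapping groups, a call lost without shNT library 2 (adjusted p = 0.0564) or 3 (0.0816). VGLL4, which competes with YAP for TEAD, had a log2 fold change of −0.066 and was not called (adjusted p = 0.477). Leaving the 10 genes aside, 6 of 8 genes of this list could be tested, of which 1 rose and 3 fell. Over all tested genes 33.6% rose and 34.5% fell. Without shNT library 2 the number called in the list went from 4 to 2.

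**Figure D3:**
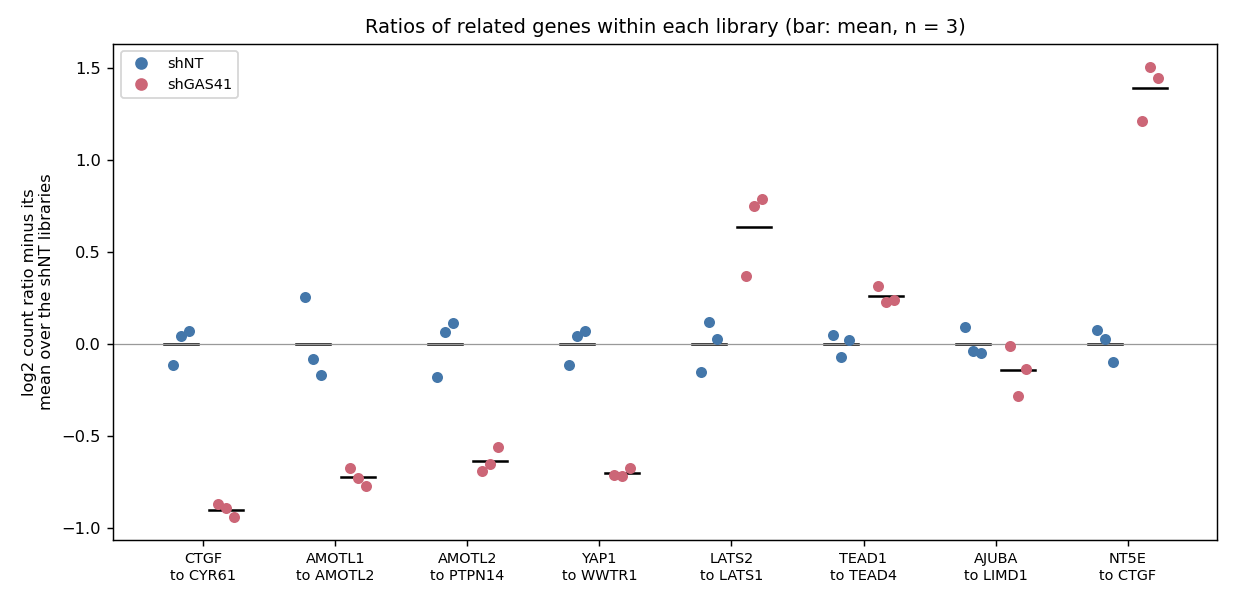
Log2 count ratio of 8 pairs of related genes in each library (points), shifted so that the mean of the shNT libraries is 0 for each pair, with group means as bars. The groups are apart in 7 of the 8 pairs and overlap for AJUBA to LIMD1. Of single genes 72.3% were apart, and the share over other pairs of genes was not computed.

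A signature of 22 genes used to score YAP/TAZ activity across tumours includes 6 of the 10 genes. Of its other 16 genes 15 were tested, and 8 rose, 3 fell and 4 were not called (33.6% of all tested genes rose and 34.5% fell). The median log2 fold change was 0.35 against −0.0051 over all genes. The falls were large and the rises mostly moderate. CCDC80, a secreted matrix protein gene, fell from 20.4, 22.4 and 23.7 CPM to 3.53, 3.43 and 3.07 CPM (log2 fold change −2.72 ± 0.09, SE; adjusted p = 1.30e-08). IGFBP3, whose product binds insulin-like growth factors, fell by 2.31, to a mean of 1.05 CPM. ANKRD1, another standard YAP readout, fell from 12.6, 13.8 and 17.1 CPM to 2.12, 4.40 and 5.58 CPM (log2 fold change −1.85 ± 0.31, SE; adjusted p = 0.00120). ANKRD1 was thus lower together with CTGF, while the third common readout, CYR61, was higher.

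Among the rises of that signature, FJX1, a Golgi kinase gene related to four-jointed that is also in the polarity list, rose by 0.56. The receptor tyrosine kinase gene AXL rose from 983 to 1367 mean CPM (log2 fold change 0.48 ± 0.06, SE). TGFB2, which encodes a TGF-beta ligand, rose from 14.8 to 28.6 mean CPM (0.95 ± 0.09).

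In the phosphatase and polarity lists upstream of the kinases the number called in either direction was near the background (68.1% of all genes). Rises outnumbered falls in both lists, while 33.6% of all genes were called as higher and 34.5% as lower. The STRIPAK complex joins the phosphatase PP2A to MST kinases and switches them off; of its 17 genes 11 rose, 2 fell and 4 were not called (median 0.16). SIKE1 rose by 0.63 and PPP2R1B, a PP2A scaffold subunit, by 0.65. The kinase gene STK26 (listed as MST4) fell by 0.48. PPP2CA, a PP2A catalytic subunit gene, fell by 0.13 (adjusted p = 0.0328), and its call was lost without shNT library 2 (adjusted p = 0.104) or 3 (0.119), without shGAS41 library 1 (0.0800) or 2 (0.0613), and with upper-quartile scaling (0.121).

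Of 16 tested polarity and atypical cadherin genes 8 rose, 4 fell and 4 were not called (median 0.18). DLG5, a scaffold gene, rose from 69.8 to 124 mean CPM and LLGL2, a lethal giant larvae homologue, from 8.50 to 19.3 mean CPM. MARK2, a polarity kinase gene, had the largest fall of the list, from 53.7 to 22.7 mean CPM (log2 fold change −1.24 ± 0.06, SE). SCRIB fell by 0.18 and LIN7C by 0.30.

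**Figure D4:**
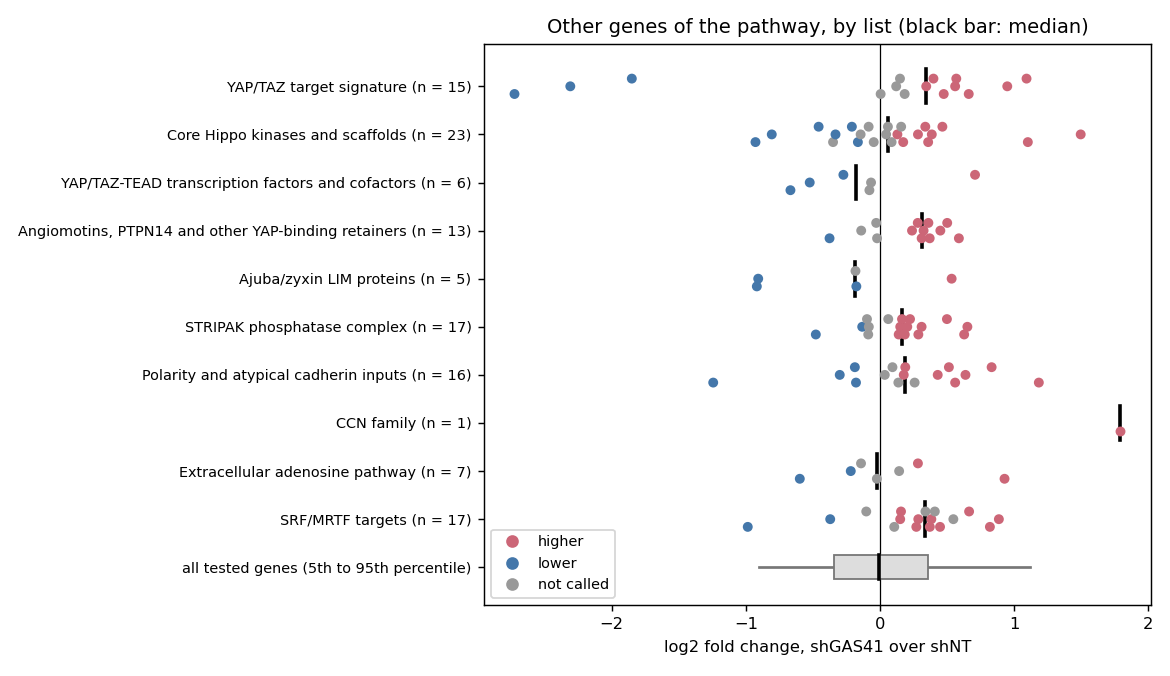
Log2 fold change (horizontal axis) of the genes of each pathway list other than the 10 genes (points, coloured by call), with the list median as a black bar and, at the bottom, the 5th to 95th percentile of all tested genes with its middle 50% as a box. Calls in both directions occur in every list with more than 1 tested gene, and the largest falls are CCDC80, IGFBP3 and ANKRD1 of the target signature.

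The authors' deposited table also carries a log2 fold change of its own for each gene, and for several of the 10 it differs from what the deposited counts give. Of the 10 genes, 4 had in the authors' deposited table an adjusted p under 0.05 (33.2% of all tested genes did): CTGF (−1.14), TEAD1 (−0.63), LATS2 (0.74) and NT5E (0.51). All 4 had the same direction in the fit to the counts, as did 4588 of the 4595 tested genes called in the authors' deposited table. For PTPN14 the authors' deposited table gives −0.086 (adjusted p = 0.777), although all 3 knockdown libraries had higher CPM than all controls. For CYR61 the authors' deposited table gives −0.15 (adjusted p = 0.532), again opposite in sign to the counts. AMOTL1 is given as −0.19 and AJUBA as −0.11 in the authors' deposited table, neither called there. Signs were opposite for 2 of the 10 genes and for 17.5% of all tested genes. Some other genes named here, such as KRT8, KRT18 and SIKE1, were among the latter. The sources used here do not state the model behind the authors' deposited table, and the cause of the difference was not tested.

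**Figure D5:**
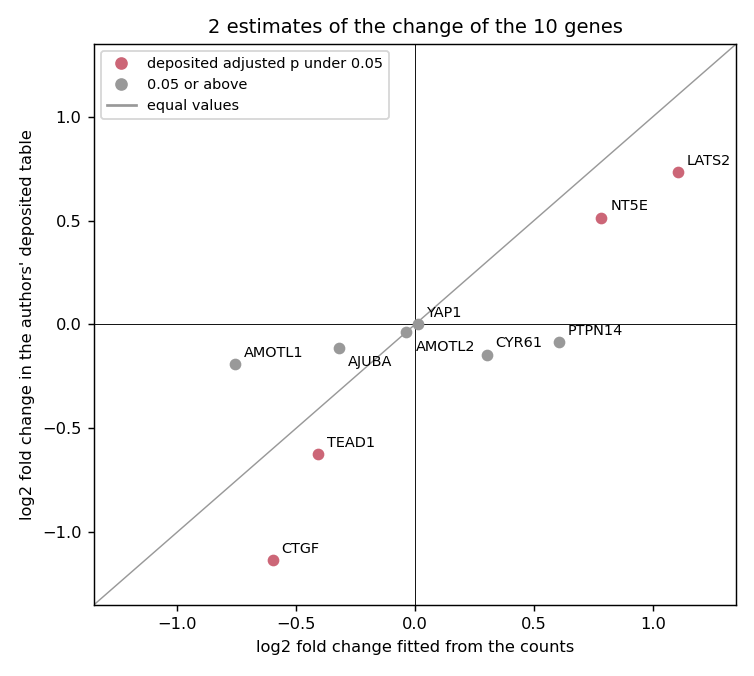
Log2 fold change fitted from the deposited counts (horizontal axis) against the value in the authors' deposited table (vertical axis) for the 10 genes, with the line of equal values and colour for the deposited adjusted p. CYR61 and PTPN14 lie to the right of 0 and below it, and CTGF is lower in the authors' deposited table (−1.14) than in the fit (−0.60).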

How the data were processed

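RNA was sequenced from 3 shNT and 3 shGAS41 libraries, grouped by their titles. The authors deposited raw whole-number counts per Ensembl gene, with their own log2 fold change, p-value and adjusted p-value. Per the submitters' processing notes the series used TopHat2 2.0.10, Bowtie2 2.1.0, HTSeq, CASAVA 1.8.2 and MACS 1.4.2 with hg19, in roles that are not stated. The sources used here give no annotation release, counting options or strand setting, so reads of overlapping or antisense genes cannot be told apart.

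From the counts, edgeR 4.0.16 (limma 3.58.1, R 4.3.3) was run with filterByExpr, which left out 7 of 13853 genes, TMM scaling, robust quasi-likelihood dispersion and Benjamini-Hochberg adjustment over all 13846 genes at 0.05. CPM are TMM-scaled. The SE is the size of the log2 fold change divided by the square root of F. Libraries held at least 58629147 counts; precision still differs by gene, and NOV, for example, rests on 22 to 58 counts in the control libraries. Exon lengths were not used, so CPM of different genes, and their part in a marker sum, do not compare transcript numbers. The code was tested on simulated counts. It recovered 40% of genes changed 1.25-fold, 86% at 1.5-fold and 94% at 2-fold, with 17 false calls among 13645 unchanged genes. Changes near 1.25-fold were thus often missed in that setting. There 13645 of 13846 genes were left unchanged, while in the data 68.1% of genes were called. Recovery with so many genes changed was not tested.

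Genes named were the 10, YEATS4, up to 3 risers and 3 fallers of smallest p per list, all measured TEAD, CCN and Ajuba genes, and genes of the ratios. AMOT and COL1A1 fall outside this rule and were named after their values were seen. One gene under the rule is not reported here. The 10 genes and the lists were chosen with earlier results of these data known. Alternatives were DESeq2 1.42.0, limma-voom, other scalings and filters, no robust option, a replicate block and leaving out libraries.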

Additional observations from a re-analysis of the deposited data

How the results depend on the processing

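The 8 called genes of the 10 kept their direction and their call in all 16 alternatives, and the number of the 10 that was called stayed at 8. AMOTL2 and YAP1 were never called, and their signs were not fixed: AMOTL2 was 0.012 with upper-quartile scaling and −0.12 to 0.054 over the fits without 1 library, and YAP1 was −0.010 with library size alone, −0.029 without library 1 of both groups and −0.028 to 0.036 without 1 library. The number of other TEAD and cofactor genes called went from 4 to between 2 and 4 without 1 library. The number called over all genes was 9425, and 8518 to 9377 without 1 library, 9348 with DESeq2 and 9433 with limma-voom. Leaving out library 1 of both groups, an alternative chosen after seeing that these 2 libraries deviate from their group means together (r = 0.45 across genes), gave −0.75 for CTGF and 0.23 for CYR61. Same-numbered libraries 2 and 3 had r of 0.078 and 0.094. Deviations from a group mean depend on each other, so these values cannot decide whether same-numbered libraries share a batch. The labels do not say so, and the main fit has no block. With a replicate block 10394 genes were called. All 8 ratios kept their sign with 0.5 added to each count and without any 1 library.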

Other observations

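CTGF and CYR61 are also known targets of the serum response factor SRF and its MRTF coactivators, so that list was read beside them. Of 17 tested SRF and MRTF genes 10 rose, 2 fell and 5 were not called, with a median log2 fold change of 0.34. Over all tested genes 33.6% rose and 34.5% fell, and the median was −0.0051. SRF itself fell from 141 to 71.3 mean CPM (log2 fold change −0.99 ± 0.05, SE; adjusted p = 1.56e-07), and FHL2, a LIM-domain cofactor gene, fell by 0.37. The coactivator gene MKL1 rose by 0.67, and CNN2, which encodes a calponin, rose from 213 to 376 mean CPM. MYL9, a myosin light chain gene, rose by 0.89. The CArG box bound by SRF was in none of the 8 genes' windows of 250 bases before the start and in 1.16% of all such windows. No window was found for CYR61, so its promoter was not searched. With so rare a motif, its absence from 8 genes says little about them.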
